A study of Homo sapiens with 12 samples.

Results

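The genes described here encode the proteins that mark, load and fire replication origins and that copy DNA at the fork. A named set of 50 gene symbols was taken, from the origin recognition complex to the fork protection complex, and each gene was represented by whichever of the probe sets listed with that symbol only was brightest on average across 12 arrays. All 50 were measured, out of 19775 genes on the array. They had 94 probe sets in all, and 4 further probe sets that list PRIM2 together with another symbol were left out.

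The cells were U937, an established human myeloid leukemia line grown in suspension, with no genotype change named in the labels. Expression was measured on Affymetrix arrays in 4 groups of 3 biological replicates. The vehicle group received DMSO, the solvent of the drug. The other groups received JS-K, a nitric oxide-releasing prodrug, for 90 min, 4 h or 24 h. In the labels used here, no JS-K dose and no duration of the DMSO exposure is given. With a single vehicle group, JS-K and time in culture cannot be told apart. Nothing more is said of how separate the replicates were, so the tests reflect only the variation among these cultures or preparations.

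DNA replication is licensed in G1 phase, when the origin recognition complex, CDC6 and CDT1 load the MCM helicase onto DNA in an inactive form. In S phase the CDC7 kinase and its partner DBF4, with cyclin-dependent kinase, help turn the loaded MCM ring into an active helicase by adding CDC45 and the GINS complex, and DNA polymerases alpha, delta and epsilon then copy the strands behind it. Many of these genes are classic targets of the E2F transcription factors, and cells that stop cycling generally lower them.

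By 24 h of JS-K, 46 of the 50 replication genes had fallen below vehicle and none had risen, with a median difference of −1.19 on the log2 scale. The largest falls were in MCM10, CDC6 and GINS2, which help load, assemble or start the helicase. A gene was called when the adjusted p of limma, over all 19775 genes, was under 0.05. By that rule 18.9% of all genes were lower at 24 h and 17.8% were higher, and among the 9551 genes with a mean of at least 4, the mark used for low signal, 37.1% were lower. With replicate 2 of 4 h not in the fit, an alternative added after the data were seen, 21.3% of all genes were lower and 52.0% higher, and 49 members were lower. The share of members called lower was 92%. The median over all genes was 0.06, and over genes with a mean of at least 4 it was −0.09. No member was higher at an unadjusted p under 0.05. All 3 arrays at 24 h lay below all 3 vehicle arrays for 49 members, or 98%, against 21.7% of all genes, and the exception was ORC6. RNA came from whole cultures, so fewer cells in a phase of the cycle and less RNA per cell cannot be told apart.

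The change was smaller and less general at the earlier times. At 4 h, 32 members (64%) were lower and 1 (2%), CDT1, was higher, against 16.6% and 23.9% of all genes and 32.4% lower among genes with a mean of at least 4. The higher share of all genes depended on single arrays: it was 5.95%, 6.77% and 5.67% without vehicle replicates 1, 2 and 3, 12.5% without 4 h replicate 2 and 41.2% without 4 h replicate 3. The lower share was 12.4% without 4 h replicate 2. The members' median at 4 h was −0.41. Over all genes the median was 0.06, and over genes with a mean of at least 4 it was −0.14. At 90 min, 7 members (14%) were lower and none was higher, against 5.62% and 4.03% of all genes and 10.5% lower among genes with a mean of at least 4. At an unadjusted p under 0.05, 16 members were lower and 1 was higher at that time. The share of all genes at that looser threshold is not given, so these counts have no background beside them. The 90 min count fell to 4, 3 and 2 without vehicle replicates 1, 2 and 3, and to 2 without either replicate 1 or replicate 2 of 90 min. It was 14 when replicate 2 of 4 h was not in the fit. Leaving out vehicle replicate 3 brought the lower share of all genes to 3.62%, and leaving out 90 min replicate 2 to 3.19%.

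**Figure D1:**
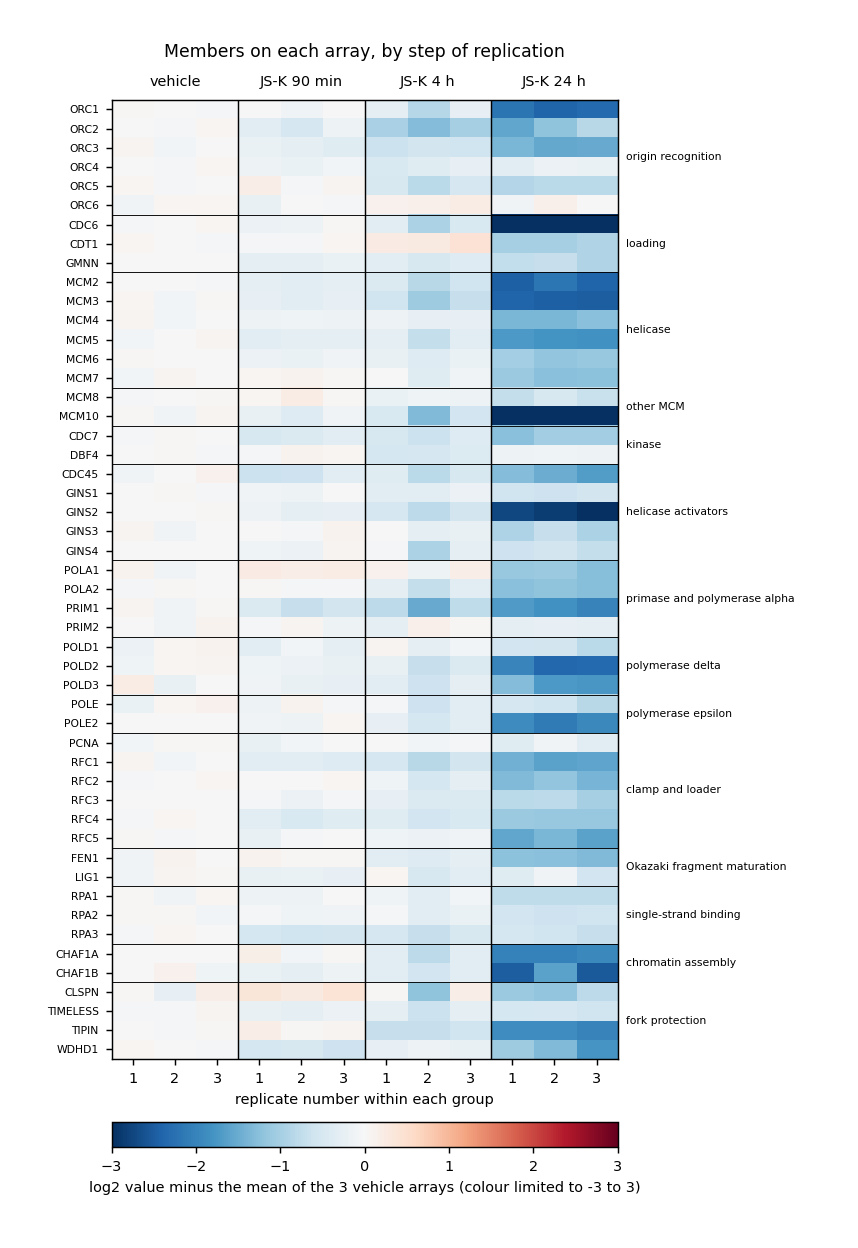
Heat map of the 50 replication genes (rows, grouped by step) on the 12 arrays (columns, by group), coloured by the log2 value minus the gene's vehicle mean, with the colour limited to −3 and 3. The 24 h columns are the darkest for lower values in most rows, and ORC6, DBF4, PRIM2 and LIG1, the 4 members not called at 24 h, stay pale.

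Between neighbouring times, the members stepped down mostly after 4 h. From 90 min to 4 h, 15 members (30%) fell and 1 rose, CDT1, against 7.25% and 3.33% of all genes. From 4 h to 24 h, 38 (76%) fell and 1 rose, DBF4, against 10.7% and 12.8% of all genes. The step from 4 h to 24 h was larger in size than that from vehicle to 4 h for 38 members, and 26 fell in both of these steps. These steps span unequal times, and no share of all genes is given for these counts. The 15 falls from 90 min to 4 h became 6 without 90 min replicate 1, 9 without replicate 2 and 7 without replicate 3, and the lower share of all genes was 4.66% without replicate 1 and 4.63% without replicate 3. The rise of CDT1 in that step was not called without 90 min replicate 1 or 2 (adjusted p = 0.0643 and 0.0583) or 4 h replicate 3 (0.0537).

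The arrays also differed in technical measures. The 24 probe sets for poly-A spike RNA averaged 3.04 ± 0.05 (SD, n = 3) in vehicle, 3.08 ± 0.06 at 90 min, 7.02 ± 0.15 at 4 h and 8.47 ± 0.05 at 24 h. The hybridization spikes averaged 9.96, 10.03, 10.21 and 11.70 in the same order, and the difference between 3′ and 5′ ACTB probe sets was 0.80, 0.83, 0.96 and 0.96. Replicate 2 of 4 h stood apart, and not only in the members. Its mean over the 50 members was 9.14 against 9.43 and 9.40 on the other 4 h arrays. The upper quartile of all its probe sets was 6.20 against 6.59 and 6.57, and its ACTB difference was 1.15 against 0.81 and 0.93. Without that array the members' median at 4 h was −0.30 and 28 were called lower. The part of these values in the results was not tested. Of the myeloid markers, LYZ at 13.64, CD4, ITGAM, SPI1 and CSF1R at 4.19 had a vehicle mean of at least 4, MPO was at 2.37, and no T-cell, B-cell, erythroid or epithelial marker reached 4.

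The promoters shown are of 5 members picked among those with an E2F-type match. Of them CDC6, GINS2, MCM2 and MCM3 are among the largest falls, while PCNA hardly fell. MCM10, ORC1, POLD2 and CHAF1B, also lower by at least 4-fold at 24 h, had windows without such a match and are not shown. Each window shown was the first of its gene to hold a match, out of 55 windows for 44 members. Each is 300 bases, from 250 before to 50 after the RefSeq start, on GRCh38.p14 and written 5′ to 3′ on the gene's strand. The windows are chr17:40287629-40287928 (plus strand) for CDC6, chr16:85688905-85689204 (minus) for GINS2, chr3:127598161-127598460 (plus) for MCM2, chr6:52284693-52284992 (minus) for MCM3 and chr20:5126573-5126872 (minus) for PCNA. Capitals mark the letters of an E2F-type motif, TTTGGCGC, TTTCCCGC or TTTCGCGC, on either strand. In MCM2 matches on both strands overlap.
CDC6: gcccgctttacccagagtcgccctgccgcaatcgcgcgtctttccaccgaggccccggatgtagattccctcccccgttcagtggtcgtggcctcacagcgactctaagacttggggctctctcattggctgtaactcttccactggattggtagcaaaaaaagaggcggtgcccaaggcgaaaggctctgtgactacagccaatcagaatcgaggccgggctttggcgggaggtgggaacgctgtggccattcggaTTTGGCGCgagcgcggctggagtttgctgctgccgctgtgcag
GINS2: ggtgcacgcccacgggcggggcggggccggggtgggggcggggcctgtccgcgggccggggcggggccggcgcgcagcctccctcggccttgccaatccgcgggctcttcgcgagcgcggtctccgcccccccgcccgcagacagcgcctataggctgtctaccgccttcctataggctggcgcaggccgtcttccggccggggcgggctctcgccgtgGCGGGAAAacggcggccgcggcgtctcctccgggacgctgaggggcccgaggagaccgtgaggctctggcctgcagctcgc
MCM2: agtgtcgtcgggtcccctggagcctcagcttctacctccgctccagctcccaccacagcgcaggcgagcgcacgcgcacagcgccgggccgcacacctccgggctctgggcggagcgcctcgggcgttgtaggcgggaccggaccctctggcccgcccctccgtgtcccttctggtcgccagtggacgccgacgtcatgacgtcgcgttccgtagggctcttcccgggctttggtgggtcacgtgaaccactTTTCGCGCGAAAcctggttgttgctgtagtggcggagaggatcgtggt
MCM3: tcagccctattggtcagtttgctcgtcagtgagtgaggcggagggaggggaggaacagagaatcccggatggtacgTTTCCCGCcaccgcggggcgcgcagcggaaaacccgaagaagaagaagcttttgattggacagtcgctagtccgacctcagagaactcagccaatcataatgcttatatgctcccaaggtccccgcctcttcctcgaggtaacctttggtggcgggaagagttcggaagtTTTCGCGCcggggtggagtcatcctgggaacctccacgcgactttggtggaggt
PCNA: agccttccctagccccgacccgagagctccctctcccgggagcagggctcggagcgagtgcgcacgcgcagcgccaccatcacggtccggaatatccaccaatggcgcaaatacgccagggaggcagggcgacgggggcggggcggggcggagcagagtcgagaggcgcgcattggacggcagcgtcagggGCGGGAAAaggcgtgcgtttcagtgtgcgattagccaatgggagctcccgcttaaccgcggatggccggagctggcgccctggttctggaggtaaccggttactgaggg

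Promoter windows were at hand for 44 members. POLD3, RPA3, RPA2, MCM4, MCM5 and GINS4 are named only. At least 1 of the 3 E2F-type motifs stood in 22 of the 44 (50%), against 2.74% of all 35116 windows and 4.45% of the 15384 measured genes with a window. TTTCCCGC was in 11 members (25%, against 2.68% of measured genes and 1.63% of windows), TTTGGCGC in 9 (20.5%, against 1.03% and 0.652%) and TTTCGCGC in 5 (11.4%, against 0.878% and 0.515%). CACGTG, the E-box that MYC and USF proteins can bind, was in 9 (20.5%, against 10.9% and 7.26%). The median 24 h difference was −1.12 for the 22 members with an E2F-type match and −1.29 for the 22 without. A match is a run of letters and was not tested as a binding site.

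Of the 6 origin recognition genes, which encode the complex that marks origins, 5 were lower at 4 h and 5 at 24 h. ORC1, the subunit whose level changes most through the cell cycle, read 8.87, 8.85 and 8.79 with vehicle, 8.83, 8.74 and 8.83 at 90 min, 8.58, 7.99 and 8.60 at 4 h and 6.65, 6.44 and 6.50 at 24 h. The 24 h arrays lay far below all others, and at 4 h 1 array, replicate 2, was lower than its partners. ORC1 fell by 2.31 ± 0.14 (SE), 4.95-fold, by 24 h (limma, adjusted p = 5.52e-08). Its fall by 4 h was 0.45 ± 0.14 (adjusted p = 0.0345), and that call was lost without vehicle replicate 1, 2 or 3 (adjusted p = 0.0973, 0.0676 and 0.0747).

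ORC2 followed another course. Its arrays read 7.93, 7.91 and 8.0 with vehicle, 7.64, 7.44 and 7.80 at 90 min, 6.98, 6.65 and 6.95 at 4 h and 6.40, 6.74 and 7.12 at 24 h. The 4 h and 24 h arrays overlapped each other and both lay below vehicle. ORC2 fell by 1.09 ± 0.17 by 4 h (adjusted p = 0.000521) and by 1.19 ± 0.17 by 24 h (adjusted p = 9.16e-05). On this probe set nearly the whole change was present at 4 h. In a limma fit of all probe sets its other probe set differed by −1.09 ± 0.24 at 4 h (adjusted p = 0.0084). At 24 h that probe set differed by −0.55 ± 0.24 and was not called (adjusted p = 0.0957). ORC2 and PRIM1 were the only members lower by at least 2-fold at 4 h.

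ORC3 and ORC5, core subunits of the same complex, fell at both later times. ORC3 read 8.90, 8.75 and 8.83 with vehicle, 8.63, 8.55 and 8.46 at 90 min, 8.19, 8.27 and 8.23 at 4 h and 7.45, 7.29 and 7.31 at 24 h, a fall of 1.48 ± 0.08 by the last time (adjusted p = 2.63e-08). ORC5 read 9.90, 9.78 and 9.82 with vehicle, 10.03, 9.81 and 9.92 at 90 min, 9.36, 9.03 and 9.32 at 4 h and 8.95, 9.04 and 9.02 at 24 h. Its fall was 0.60 ± 0.09 by 4 h (adjusted p = 0.000467) and 0.83 ± 0.09 by 24 h (adjusted p = 1.03e-05). ORC4 fell by 0.23 ± 0.08 by 24 h (adjusted p = 0.0326), a call lost without vehicle replicate 1 or 3 (adjusted p = 0.0845 and 0.114) or 24 h replicate 1 or 3 (0.125 and 0.0524). ORC6, which joins the complex loosely, was not called at any time, and its 24 h difference was 0.02 ± 0.09 (adjusted p = 0.821).

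All 3 loading genes were lower at 24 h, but they moved differently before that. CDC6, the ATPase that brings MCM to the origin, read 8.26, 8.29 and 8.35 with vehicle, 8.13, 8.16 and 8.34 at 90 min, 7.99, 7.36 and 7.83 at 4 h and 4.80, 4.77 and 4.73 at 24 h. No array at 4 h or 24 h overlapped vehicle, and the 24 h arrays were lower by over 3 log2 units. CDC6 fell by 3.54 ± 0.14, or 11.6-fold (adjusted p = 1.9e-09), with 2.96 ± 0.14 of that after 4 h. The fall by 4 h was 0.57 ± 0.14 (adjusted p = 0.0108).

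CDT1, which carries MCM to the origin with CDC6, went up before it went down on its brighter probe set. It read 9.50, 9.44 and 9.36 with vehicle, 9.40, 9.40 and 9.50 at 90 min, 9.68, 9.70 and 9.87 at 4 h and 8.44, 8.44 and 8.54 at 24 h. The 4 h arrays lay above all vehicle arrays and the 24 h arrays below them. CDT1 rose by 0.31 ± 0.07 by 4 h (adjusted p = 0.0074), fell by 1.27 ± 0.07 from 4 h to 24 h (adjusted p = 1.15e-07) and ended 1.94-fold lower than vehicle, a fall of 0.96 ± 0.07 (adjusted p = 4.02e-07). Its other probe set did not rise. In a fit of all probe sets it fell by 0.76 ± 0.20 by 90 min, 0.84 ± 0.20 by 4 h and 2.07 ± 0.20 by 24 h (adjusted p = 0.045, 0.0127 and 7.3e-06), with means of 8.24, 7.48, 7.39 and 6.17. The direction of CDT1 at 4 h therefore depends on the probe set, and the fall by 24 h does not.

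GMNN encodes geminin, the inhibitor that binds CDT1 and blocks relicensing. Its arrays read 11.01, 11.02 and 11.04 with vehicle, 10.74, 10.74 and 10.82 at 90 min, 10.70, 10.53 and 10.64 at 4 h and 10.28, 10.33 and 10.13 at 24 h. Every JS-K array lay below every vehicle array. GMNN fell by 0.25 ± 0.07, 0.40 ± 0.07 and 0.78 ± 0.07 by 90 min, 4 h and 24 h (adjusted p = 0.0285, 0.000777 and 9.97e-07). The 90 min call was lost without any of the 3 vehicle replicates (adjusted p = 0.067, 0.0801 and 0.106) and without 90 min replicate 1 or 2 (0.0978 and 0.109).

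**Figure D2:**
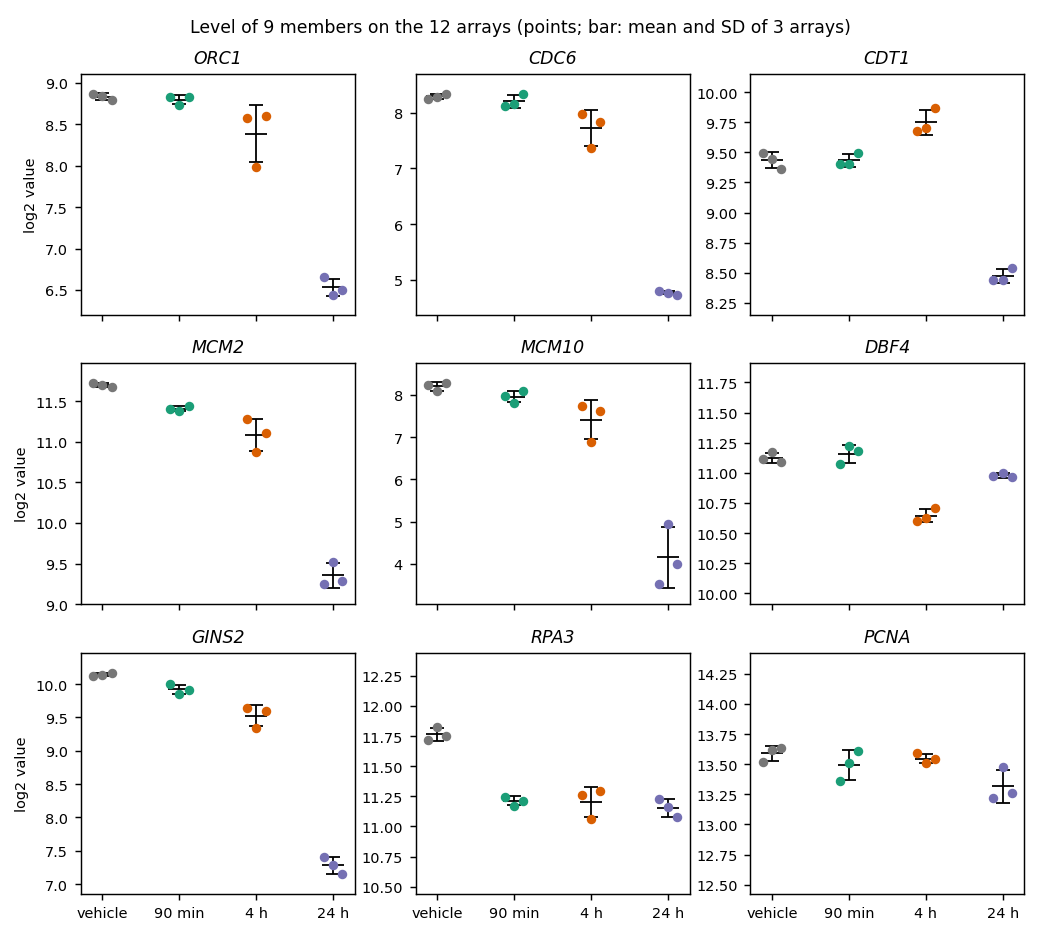
Log2 values of 9 members on each array (points), with the mean and SD of each group of 3 (bars), for vehicle, 90 min, 4 h and 24 h; each panel has its own vertical scale. CDT1 rises at 4 h before it falls (on its other probe set it was already lower at 4 h), DBF4 dips at 4 h, RPA3 is already lower at 90 min, and the fall of PCNA is 0.27.

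The 6 subunits of the MCM2-7 helicase were all lower at 24 h, with a median difference of −1.56, and 5 of them at 4 h. MCM2 read 11.72, 11.71 and 11.68 with vehicle, 11.40, 11.38 and 11.44 at 90 min, 11.28, 10.88 and 11.10 at 4 h and 9.25, 9.52 and 9.29 at 24 h. MCM3 read 12.10, 11.96 and 12.10 with vehicle, 11.82, 11.74 and 11.80 at 90 min, 11.46, 10.98 and 11.37 at 4 h and 9.66, 9.62 and 9.58 at 24 h. For both genes the arrays stepped down at each time without overlap between vehicle and JS-K. MCM3 fell by 2.44 ± 0.10 by 24 h, 5.42-fold (adjusted p = 2.42e-09), and MCM2 by 2.35 ± 0.09, 5.09-fold (adjusted p = 1.97e-09). By 4 h the falls were 0.79 ± 0.10 in MCM3 and 0.61 ± 0.09 in MCM2 (adjusted p = 0.000128 and 0.000483).

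MCM5 sits at the gate through which the ring opens around DNA, beside MCM2. It read 10.52, 10.62 and 10.69 with vehicle, 10.27, 10.32 and 10.30 at 90 min, 10.30, 9.88 and 10.26 at 4 h and 8.87, 8.82 and 8.79 at 24 h. Every JS-K array was below every vehicle array, although the 90 min difference of −0.31 ± 0.10 was not called (adjusted p = 0.0702). MCM5 fell by 1.78 ± 0.10 by 24 h (adjusted p = 2.2e-08) and by 0.46 ± 0.10 by 4 h (adjusted p = 0.00414). MCM4, MCM6 and MCM7, the other ring subunits, fell by 1.34 ± 0.06, 1.12 ± 0.06 and 1.20 ± 0.08 by 24 h. MCM7 was the subunit not called at 4 h, at −0.15 ± 0.08 (adjusted p = 0.135). The 4 h call of MCM4 was lost without vehicle replicate 1 or 3 (adjusted p = 0.101 and 0.0764). In the fit of all probe sets, other MCM4 probe sets with a mean of at least 4 fell further by 24 h, by 1.95, 2.00 and 2.22. At 4 h they differed by −0.48, −0.62 and −0.51 (adjusted p = 0.0344, 0.00282 and 0.0556). The other MCM6 probe set fell by 1.93 by 24 h but differed by 0.01 at 4 h (adjusted p = 0.965).

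MCM8 and MCM10 share the MCM name but are not subunits of that ring. MCM10, needed to start the assembled helicase, read 8.23, 8.08 and 8.27 with vehicle, 7.98, 7.81 and 8.08 at 90 min, 7.73, 6.88 and 7.62 at 4 h and 3.52, 4.95 and 4.00 at 24 h. Of its 24 h arrays, 2 were at or under the low-signal mark of 4, with an SD over the 24 h arrays of 0.73. MCM10 had the largest 24 h difference of the 50, a fall of 4.04 ± 0.31 (adjusted p = 3.95e-07), while its 4 h difference of −0.78 ± 0.31 was not called (adjusted p = 0.0547). The size depends on the probe set. In the fit of all probe sets 1 of the others fell by 1.55 ± 0.21 (adjusted p = 0.000108), and 1 differed by −0.72 ± 0.30 (adjusted p = 0.0827). MCM8, a helicase used mainly in recombination, read 10.02, 10.08 and 10.11 with vehicle, 10.12, 10.29 and 10.11 at 90 min, 9.88, 9.94 and 9.93 at 4 h and 9.36, 9.59 and 9.39 at 24 h, and fell by 0.62 ± 0.07 by 24 h (adjusted p = 2.27e-05).

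The kinase that fires origins is made of CDC7, the catalytic subunit, and DBF4, its activator, and their RNA did not move together. CDC7 read 8.70, 8.79 and 8.77 with vehicle, 8.26, 8.32 and 8.44 at 90 min, 8.27, 8.10 and 8.37 at 4 h and 7.49, 7.72 and 7.70 at 24 h. DBF4 read 11.11, 11.17 and 11.09 with vehicle, 11.07, 11.22 and 11.18 at 90 min, 10.60, 10.63 and 10.71 at 4 h and 10.97, 11.00 and 10.96 at 24 h. CDC7 was lower on every JS-K array, whereas DBF4 was lowest on the 4 h arrays and higher again at 24 h. CDC7 fell by 0.41 ± 0.10, 0.51 ± 0.10 and 1.11 ± 0.10 by 90 min, 4 h and 24 h (adjusted p = 0.0162, 0.00202 and 1.17e-06). DBF4 fell by 0.48 ± 0.06 by 4 h (adjusted p = 5.6e-05) and rose by 0.33 ± 0.06 from 4 h to 24 h (adjusted p = 0.000586). Its 24 h difference from vehicle was −0.15 ± 0.06 (adjusted p = 0.0549). The 90 min call of CDC7 was lost without vehicle replicate 2 or 3 (adjusted p = 0.0641 and 0.0652) and without 90 min replicate 1 or 2 (0.0711 and 0.0645).

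All 5 helicase activators, CDC45 and the 4 GINS subunits, were lower at 24 h and 3 of them at 4 h. GINS2 read 10.13, 10.13 and 10.17 with vehicle, 10.00, 9.85 and 9.91 at 90 min, 9.64, 9.35 and 9.59 at 4 h and 7.41, 7.29 and 7.16 at 24 h. CDC45, which joins GINS and MCM in the moving helicase, read 8.38, 8.46 and 8.61 with vehicle, 7.85, 7.86 and 8.13 at 90 min, 8.12, 7.67 and 7.99 at 4 h and 7.18, 7.0 and 6.82 at 24 h. In CDC45 the 90 min and 4 h arrays lay at one level below vehicle and the 24 h arrays lower still. GINS2 fell by 2.86 ± 0.09, 7.25-fold, by 24 h (adjusted p = 3.82e-10), and by 0.62 ± 0.09 by 4 h (adjusted p = 0.00034). CDC45 fell by 0.54 ± 0.14, 0.56 ± 0.14 and 1.48 ± 0.14 at the successive times (adjusted p = 0.0271, 0.0108 and 2.27e-06). Its 90 min call was lost without vehicle replicate 2 or 3 (0.0706 and 0.12) or 90 min replicate 1 or 2 (0.102 and 0.11), and its 4 h call without vehicle replicate 3 (adjusted p = 0.0533).

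The other GINS subunits fell less than GINS2. GINS3 read 7.50, 7.32 and 7.43 with vehicle, 7.44, 7.39 and 7.53 at 90 min, 7.40, 7.13 and 7.20 at 4 h and 6.48, 6.73 and 6.46 at 24 h, a fall of 0.86 ± 0.11 (adjusted p = 5.41e-05). GINS1 and GINS4 fell by 0.59 ± 0.06 and 0.63 ± 0.18 by 24 h (adjusted p = 3.95e-06 and 0.0132). The GINS complex holds each subunit in equal number, and the size of the RNA change ranged from 0.59 to 2.86 among genes of 1 complex.

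**Figure D3:**
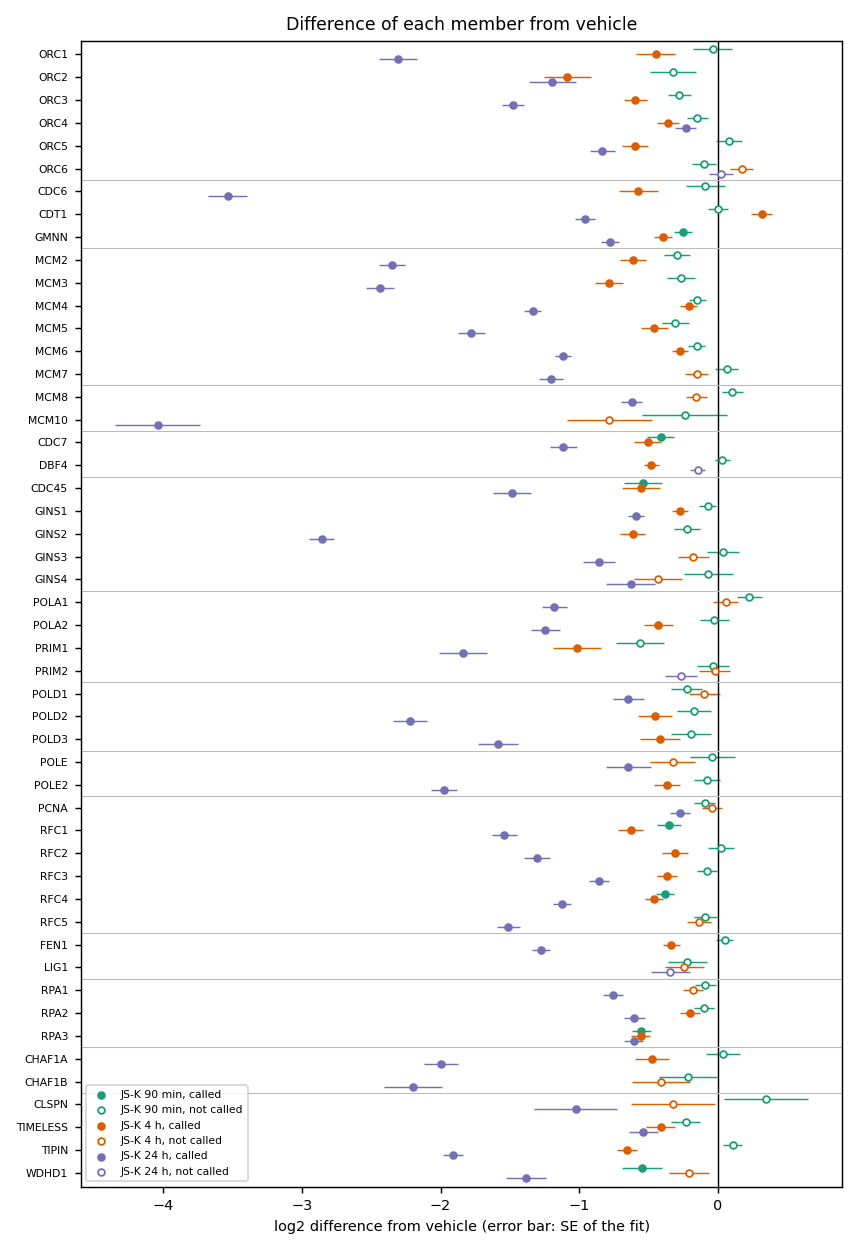
Log2 difference from vehicle (± SE of the limma fit) for each of the 50 members at 90 min, 4 h and 24 h, grouped by step; filled points were called at an adjusted p under 0.05. Most points move left at 24 h, from −4.04 in MCM10 to 0.02 in ORC6, while the 90 min points lie close to 0.

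Polymerase alpha and primase lay the first primer of each new strand, and 3 of their 4 genes were lower at 24 h. PRIM1, the catalytic primase subunit, read 9.55, 9.37 and 9.50 with vehicle, 9.04, 8.77 and 8.92 at 90 min, 8.70, 7.96 and 8.72 at 4 h and 7.78, 7.66 and 7.47 at 24 h. It stepped down at every time with no overlap with vehicle. PRIM1 fell by 1.02 ± 0.17 by 4 h (adjusted p = 0.00106) and by 1.84 ± 0.17 by 24 h (adjusted p = 2.75e-06). Its 90 min difference of −0.56 ± 0.17 was not called (adjusted p = 0.0666), but was called in the fit with the replicate block (adjusted p = 0.0374).

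POLA1, the catalytic polymerase subunit, changed late. It read 10.03, 9.82 and 9.92 with vehicle, 10.18, 10.12 and 10.15 at 90 min, 10.04, 9.78 and 10.12 at 4 h and 8.78, 8.81 and 8.65 at 24 h. Its 90 min arrays all lay above the vehicle arrays and its 24 h arrays all below them. The differences were 0.22 ± 0.09 at 90 min (adjusted p = 0.179) and 0.05 ± 0.09 at 4 h (adjusted p = 0.612), and POLA1 fell by 1.18 ± 0.09 by 24 h (adjusted p = 4.2e-07). POLA2, its accessory subunit, read 9.01, 9.07 and 9.05 with vehicle, 9.07, 9.00 and 8.98 at 90 min, 8.78, 8.33 and 8.73 at 4 h and 7.78, 7.84 and 7.78 at 24 h. POLA2 fell by 0.43 ± 0.10 by 4 h and 1.25 ± 0.10 by 24 h (adjusted p = 0.00947 and 9.25e-07). PRIM2, the large primase subunit, was not called at any time, and at 24 h differed by −0.26 ± 0.11 (adjusted p = 0.0821).

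Polymerase delta copies mainly the lagging strand, and its 3 genes on the list were lower at 24 h. POLD4, which is not on the list, was higher at 24 h and is given with the related genes below. POLD2, an accessory subunit, read 10.84, 11.02 and 11.06 with vehicle, 10.84, 10.80 and 10.76 at 90 min, 10.74, 10.28 and 10.54 at 4 h and 9.00, 8.62 and 8.64 at 24 h. POLD3, another accessory subunit, read 9.38, 8.94 and 9.15 with vehicle, 9.05, 8.93 and 8.90 at 90 min, 8.83, 8.53 and 8.86 at 4 h and 7.86, 7.45 and 7.41 at 24 h. POLD1, the catalytic subunit, read 9.38, 9.61 and 9.64 with vehicle, 9.24, 9.46 and 9.26 at 90 min, 9.62, 9.26 and 9.46 at 4 h and 8.97, 8.99 and 8.73 at 24 h. POLD2 and POLD3 dropped further than POLD1. POLD2 fell by 2.22 ± 0.12, 4.67-fold, POLD3 by 1.59 ± 0.14 and POLD1 by 0.65 ± 0.11 by 24 h (adjusted p = 2.4e-08, 1.8e-06 and 0.000507). POLD2 and POLD3 also fell by 0.45 ± 0.12 and 0.42 ± 0.14 by 4 h (adjusted p = 0.0171 and 0.0435). These 4 h calls were lost without 4 h replicate 2 (adjusted p = 0.0565 and 0.117) and without vehicle replicate 3 (0.0689 and 0.099), and also without vehicle replicate 2 for POLD2 (0.0544) and replicate 1 for POLD3 (0.137).

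Polymerase epsilon copies mainly the leading strand, and of its genes on the list POLE2 dropped further than POLE. POLE2, an accessory subunit, read 9.20, 9.19 and 9.20 with vehicle, 9.08, 9.04 and 9.25 at 90 min, 8.95, 8.68 and 8.86 at 4 h and 7.31, 7.08 and 7.26 at 24 h. POLE, the catalytic subunit, read 6.58, 6.84 and 6.91 with vehicle, 6.62, 6.88 and 6.71 at 90 min, 6.73, 6.16 and 6.45 at 4 h and 6.27, 6.17 and 5.95 at 24 h. POLE2 fell by 1.98 ± 0.09 by 24 h (adjusted p = 7.53e-09) and by 0.37 ± 0.09 by 4 h (adjusted p = 0.0129). POLE fell by 0.65 ± 0.16 by 24 h (adjusted p = 0.00701) and was not called at 4 h. Differences in size between genes were not tested.

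PCNA, the ring that clamps polymerases to DNA, and the 5 subunits of RFC, which loads it, were all lower at 24 h. PCNA read 13.52, 13.62 and 13.63 with vehicle, 13.36, 13.51 and 13.61 at 90 min, 13.59, 13.51 and 13.54 at 4 h and 13.22, 13.47 and 13.26 at 24 h. The 24 h arrays lay below vehicle by a small margin. Its fall of 0.27 ± 0.07, 1.21-fold (adjusted p = 0.0116), was no longer called without 24 h replicate 1 (adjusted p = 0.0537) or after quantile normalization (0.0788). Of the members called at 24 h, only ORC4 fell less.

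The loader subunits fell more than the clamp. RFC1, the large subunit, read 9.55, 9.40 and 9.46 with vehicle, 9.14, 9.13 and 9.07 at 90 min, 8.96, 8.65 and 8.91 at 4 h and 8.02, 7.86 and 7.89 at 24 h. RFC4 read 10.67, 10.76 and 10.70 with vehicle, 10.38, 10.25 and 10.35 at 90 min, 10.35, 10.13 and 10.26 at 4 h and 9.59, 9.58 and 9.58 at 24 h. Both were lower on every JS-K array. RFC1 fell by 0.35 ± 0.09, 0.63 ± 0.09 and 1.54 ± 0.09 by 90 min, 4 h and 24 h (adjusted p = 0.027, 0.000286 and 4.06e-08), and its 90 min call was lost without vehicle replicate 1 or 3 (0.103 and 0.0855) and without 90 min replicate 1, 2 or 3 (0.0656, 0.079 and 0.101). RFC4 fell by 0.38 ± 0.07, 0.46 ± 0.07 and 1.12 ± 0.07 (adjusted p = 0.00269, 0.000278 and 4.12e-08), and its 90 min call was kept without each array.

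RFC2 and RFC5 are further small subunits. RFC2 read 10.14, 10.17 and 10.23 with vehicle, 10.17, 10.18 and 10.25 at 90 min, 10.05, 9.66 and 9.89 at 4 h and 8.85, 8.99 and 8.78 at 24 h, a fall of 1.30 ± 0.09 (adjusted p = 2.18e-07). RFC5 read 9.26, 9.18 and 9.23 with vehicle, 9.01, 9.16 and 9.22 at 90 min, 9.10, 9.04 and 9.12 at 4 h and 7.66, 7.86 and 7.61 at 24 h, a fall of 1.51 ± 0.08 (adjusted p = 2.77e-08). The probe sets of RFC5 disagreed. In the fit of all probe sets 1 of the others fell by 2.05 ± 0.34 and 1 rose by 0.58 ± 0.17 by 24 h (adjusted p = 0.000466 and 0.0203). The fall of RFC2 by 4 h, 0.31 ± 0.09 (adjusted p = 0.0285), was not called without vehicle replicate 1, 2 or 3 (0.0558, 0.0611 and 0.0929) or 4 h replicate 2 (0.0606). RFC3 fell by 0.37 ± 0.07 by 4 h and 0.86 ± 0.07 by 24 h (adjusted p = 0.00317 and 1.3e-06).

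Of the genes that finish Okazaki fragments, FEN1, the nuclease that trims flaps, fell and LIG1, the ligase, was not called at any time. FEN1 read 11.05, 11.26 and 11.13 with vehicle, 11.25, 11.17 and 11.17 at 90 min, 10.80, 10.76 and 10.88 at 4 h and 9.91, 9.88 and 9.83 at 24 h. Its 90 min arrays overlapped vehicle and the later ones did not. FEN1 fell by 0.34 ± 0.06 by 4 h and 1.28 ± 0.06 by 24 h (adjusted p = 0.00186 and 9.9e-09). LIG1 differed by −0.34 ± 0.14 at 24 h (adjusted p = 0.0728), with all 24 h arrays below the vehicle arrays.

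RPA, the complex that coats single-stranded DNA, was lower in all 3 subunits at 24 h. RPA3, the smallest subunit, read 11.72, 11.82 and 11.75 with vehicle, 11.25, 11.17 and 11.21 at 90 min, 11.26, 11.06 and 11.29 at 4 h and 11.23, 11.16 and 11.08 at 24 h. Its JS-K arrays formed 1 level below vehicle, already reached at 90 min. RPA3 fell by 0.55 ± 0.07, 0.56 ± 0.07 and 0.61 ± 0.07 by the 3 times (adjusted p = 0.000241, 7.62e-05 and 1.04e-05), and its steps between JS-K times, −0.01 ± 0.07 and −0.05 ± 0.07, were not called (adjusted p = 0.947 and 0.764). The 90 min call of RPA3 was kept without each array.

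RPA1 and RPA2, the larger subunits, changed later. RPA1 read 11.43, 11.28 and 11.45 with vehicle, 11.25, 11.23 and 11.41 at 90 min, 11.25, 11.06 and 11.31 at 4 h and 10.64, 10.63 and 10.62 at 24 h. RPA2 read 10.18, 10.20 and 10.08 with vehicle, 10.10, 10.02 and 10.04 at 90 min, 10.10, 9.81 and 9.95 at 4 h and 9.57, 9.53 and 9.56 at 24 h. For both, the 4 h arrays overlapped vehicle and the 24 h arrays did not. They fell by 0.76 ± 0.07 and 0.60 ± 0.07 by 24 h (adjusted p = 3.93e-06 and 2.47e-05). RPA2 was called at 4 h at −0.20 ± 0.07 (adjusted p = 0.0478), a call lost without any vehicle replicate (0.129, 0.109 and 0.0798) or 4 h replicate 2 or 3 (0.115 and 0.0656).

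CHAF1A and CHAF1B encode subunits of CAF-1, which sets histones onto the new DNA. On their brightest probe sets both fell by about 4-fold. CHAF1A read 9.01, 9.00 and 9.03 with vehicle, 9.18, 8.93 and 9.05 at 90 min, 8.70, 8.22 and 8.69 at 4 h and 6.99, 6.98 and 7.08 at 24 h. CHAF1B read 7.13, 7.28 and 7.02 with vehicle, 6.94, 6.86 and 6.98 at 90 min, 6.79, 6.58 and 6.83 at 4 h and 4.66, 5.54 and 4.63 at 24 h. Most of both falls came after 4 h. CHAF1B fell by 2.20 ± 0.21, 4.59-fold, and CHAF1A by 2.00 ± 0.12, 3.99-fold, by 24 h (adjusted p = 2.81e-06 and 5.52e-08). CHAF1A also fell by 0.48 ± 0.12 by 4 h (adjusted p = 0.0129), and CHAF1B was not called there. The size for CHAF1A depends on the probe set. In the fit of all probe sets, others with a mean of at least 4 fell by 1.21 ± 0.15 and 2.54 ± 0.36 by 24 h (adjusted p = 5.47e-05 and 0.00015).

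Across the list, 30 members were lower by at least 2-fold at 24 h and 8 by at least 4-fold. No share of all genes is given at these folds, so the counts describe the members only. The 8 were MCM10, CDC6, GINS2, MCM3, MCM2, ORC1, POLD2 and CHAF1B. CHAF1B was the smallest of them, and CHAF1A, at 3.99-fold on its brightest probe set, lay just outside.

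The 4 genes that stabilize the moving fork were all lower at 24 h. TIPIN, which with TIMELESS ties the helicase to the polymerases, read 10.40, 10.37 and 10.44 with vehicle, 10.61, 10.44 and 10.48 at 90 min, 9.72, 9.71 and 9.81 at 4 h and 8.55, 8.54 and 8.39 at 24 h. TIMELESS read 8.33, 8.30 and 8.44 with vehicle, 8.14, 8.05 and 8.18 at 90 min, 8.07, 7.70 and 8.06 at 4 h and 7.84, 7.85 and 7.77 at 24 h. TIPIN started with vehicle and moved after 90 min, while the TIMELESS arrays lay slightly lower from 90 min on. TIPIN fell by 0.66 ± 0.07 by 4 h and 1.91 ± 0.07 by 24 h (adjusted p = 2.91e-05 and 9.35e-10). TIMELESS fell by 0.41 ± 0.10 and 0.54 ± 0.10 (adjusted p = 0.012 and 0.00114), and its 4 h call was lost without vehicle replicate 3 (adjusted p = 0.0586).

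WDHD1, the human AND-1 protein that links polymerase alpha to the helicase, read 8.50, 8.45 and 8.39 with vehicle, 7.92, 7.96 and 7.82 at 90 min, 8.20, 8.29 and 8.22 at 4 h and 7.38, 7.13 and 6.67 at 24 h. It was the 1 member called at 90 min but not at 4 h, and that rests on the probe set. In the fit of all probe sets another fell by 0.95 ± 0.14 by 4 h (adjusted p = 0.000717), and with the mean of its probe sets WDHD1 fell by 0.42 (adjusted p = 0.00224). WDHD1 fell by 0.55 ± 0.14 by 90 min (adjusted p = 0.0298), a call lost without each of the 6 vehicle and 90 min arrays in turn (adjusted p from 0.0704 to 0.112), and by 1.38 ± 0.14 by 24 h (adjusted p = 6.1e-06). CLSPN, claspin, the mediator that lets ATR activate CHEK1, read 5.70, 5.40 and 5.87 with vehicle, 6.02, 5.93 and 6.06 at 90 min, 5.68, 4.45 and 5.86 at 4 h and 4.54, 4.48 and 4.86 at 24 h. CLSPN fell by 1.03 ± 0.30 by 24 h (adjusted p = 0.0176), not called without vehicle replicate 3 (0.0672) or 24 h replicate 1 or 2 (0.0506 and 0.0572).

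Most other probe sets of the members gave a like picture at 24 h. Of 44, 29 had a mean of at least 4, from 23 members, and of these 22 were lower at 24 h and 1 was higher, the RFC5 probe set named above. Among those not called, 1 of POLD3 differed by −0.26 ± 0.28 and 1 of CLSPN by 0.06 ± 0.16 at 24 h (adjusted p = 0.442 and 0.754). At 4 h 11 of the 29 were lower and none was higher (limma on all probe sets). Over all 94 member probe sets, 4 were higher at 4 h. They were the brighter CDT1 probe set and dim ones of CHAF1A, RFC1 and RFC3, with means of 2.15, 2.67 and 1.85. The brightest probe sets of those last genes were lower at 4 h.

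Related genes outside the list did not all move the same way by 24 h. The changes named for them were called by limma over all genes unless said otherwise. At 24 h 18.9% of all genes were lower and 17.8% higher, and 37.1% were lower among genes with a mean of at least 4. Of 35 other replication factors, 23 were lower and 4 higher, with a median of −0.65. MTBP, which helps fire origins, fell by 1.74, DNA2, a nuclease for flaps, by 1.60, and ATAD5, which unloads PCNA, by 1.46. The 4 that were higher, named after their values were seen, were POLD4, DBF4B, TOP2A and ASF1B, and 2 were higher without vehicle replicate 3. Of 11 measured fork checkpoint genes, 6 were lower and 1 higher, with a median of −0.52. CDC25A, the phosphatase that activates CDK2, fell by 1.87, the checkpoint kinase ATR by 1.61 and its target CHEK1 by 0.95. The 1 higher call was lost without vehicle replicate 2 or 3 or 24 h replicate 2.

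Genes for nucleotide supply were split, with 3 of 11 measured lower, 3 higher and a median of 0.06. With 11 genes, these counts are not far from the shares of all genes, 18.9% lower and 17.8% higher. SLC29A1, a nucleoside transporter, fell by 3.68 and CTPS1, which makes CTP, by 1.82, while RRM2B, the p53-induced ribonucleotide reductase subunit, rose by 2.13. RRM2, the S-phase subunit of that enzyme, differed by 0.06 and was not called. Of 12 genes for S-phase entry, 8 were lower and 3 higher, with a median of −0.93. The higher calls numbered 2 without any 1 vehicle or 24 h replicate. CCNE1, cyclin E1, fell by 3.19, FBXO5, the inhibitor of the anaphase-promoting complex, by 1.63, E2F8 by 1.32 and E2F1 by 0.82. CCNE2, cyclin E2, rose by 1.15 by 4 h and had fallen 1.15 below vehicle by 24 h. At 4 h the S-phase entry list did not move with the members. It had 2 lower and 6 higher, with a median of 0.20, against 16.6% and 23.9% of all genes. The 6 became 5 without any 1 vehicle replicate.

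In contrast to the members, genes of G2 phase and mitosis were higher at 24 h. Of 20, 19 were higher and none lower, with a median of 1.11, against 17.8% and 18.9% of all genes. PLK1 rose by 2.03, the kinesin CENPE by 1.85 and the kinase AURKA by 1.73. Of 42 replication-dependent histone genes, only 7 had a mean of at least 4, and 3 were lower and 5 higher at 24 h. Both histone counts lie below the shares of all genes. H2BC12 rose by 2.57 and H2AC6, which was under 4 with vehicle, by 2.44, while the fall of 0.94 in H4C11 was lost without vehicle replicate 1 or 3 or any 24 h replicate. The histone calls higher numbered 3 without any 1 vehicle replicate, 19 with replicate 2 of 4 h not in the fit or on the 6 arrays alone and 24 with array weights, and the calls lower 1 without vehicle replicate 1 or 3 or any 24 h replicate and 6 without vehicle replicate 2. Of all genes, 52.0% were higher with that 4 h array out of the fit and 55.8% with array weights. No test compared the lists with each other.

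**Figure D4:**
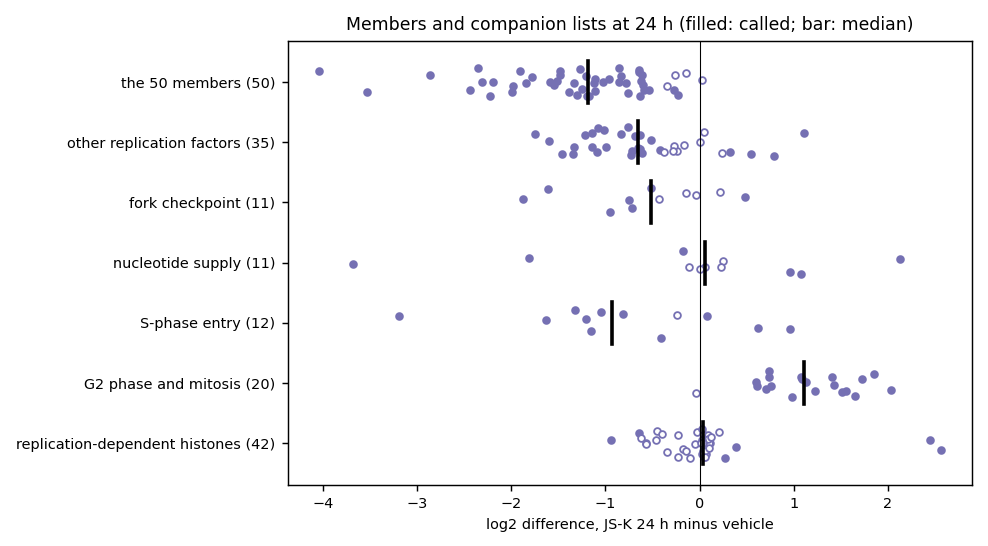
Log2 difference from vehicle at 24 h of each gene (points) in the 50 members and 6 related lists, with the list's median as a bar. The members' median is −1.19, S-phase entry is at −0.93, and G2 phase and mitosis lies at 1.11 on the other side of 0.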

How the data were processed

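RNA of 12 U937 cultures, 3 per group, was labelled with biotin from random hexamers with a whole-transcript kit, per the labels' protocols. Per the submitters' processing notes the authors used GCRMA, which corrects background by probe sequence and normalizes by quantiles, in Affymetrix Expression Console, version not given, and deposited 1 log2 value per probe set and array. These log2 values were used as deposited. Array depth is not a count, and the number of arrays limits the precision.

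Of 54675 probe sets, 41097 list 1 gene symbol, 1801 several and 11777 none, in annotation of the array platform, and 41043 matched a RefSeq gene by identifier. Each gene was represented by its brightest probe set on average, which gave 19775 genes, 10224 of them with a mean under 4. Every member had a mean of at least 4 in each group, and no filter on level was set.

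All 12 arrays entered a single limma model (version 3.58.1, under R 4.3.3) with a mean-variance trend in eBayes, checked on simulated data. In each of 5 comparisons the Benjamini-Hochberg adjustment ran over all 19775 genes, and calls needed an adjusted p under 0.05. SE are of that fit, SD are over 3 arrays, and a fold is 2 to the power of the log2 difference. The arrays of every group enter more than 1 comparison, so the comparisons are not independent. The members, their steps, the related lists and the rule for named genes were chosen with earlier results of these data known. Per step, full values are given for up to 3 called members with the largest 24 h difference, up to 2 with the largest 4 h difference, members called at 90 min or in opposite directions, and MCM2, MCM5, CDC6, CDT1, ORC1, GMNN and PCNA. Related lists name up to 3 called genes plus CCNE2, E2F1, RRM2 and CHEK1. Same-numbered vehicle and 90 min arrays deviated together (r = 0.263, 0.234 and 0.124 for replicates 1, 2 and 3), which met the rule used for pairing. Vehicle replicate 3 deviated more with 90 min replicate 2 (r = 0.152), so a pairing was not established. In each other pair of groups at least 1 same-numbered r was under 0.1. The replicate block covered all 4 groups. Alternatives were a replicate block, a constant spread, probe sets averaged per gene, all probe sets tested singly, dim genes left out (the lowest tertile by mean), quantile normalization, subtraction of array medians, weighting of arrays, fits on 6 arrays, and leaving out each array. Promoter windows are from RefSeq on GRCh38.p14, and plots were drawn with matplotlib 3.10.9.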

Additional observations from a re-analysis of the deposited data

Results flagged for a closer look

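CDT1 differed by −1.27 between 24 h and 4 h, since its 4 h arrays all lay above vehicle and its 24 h arrays all below. POLA1 differed by −1.23 between the same times, because its 4 h difference from vehicle was 0.05 and its 24 h difference −1.18. Outside the main measurement, the poly-A spike probe sets averaged 7.02 at 4 h and 8.47 at 24 h, against 3.04 with vehicle. What part the spikes have in the members' values was not tested.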

How the results depend on the processing

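The members' counts held best at the later times. Over the alternatives that keep every array, 26 to 34 genes were lower at 4 h and 44 to 49 at 24 h, 25 and 49 on the 6 arrays of each comparison alone, and without each array in turn 24 to 37 and 43 to 46. Of the 46 calls at 24 h, 43 held under every alternative, with ORC4, PCNA and CLSPN the exceptions. At 4 h 19 of 33 held, and at 90 min 2 of 7, RFC4 and RPA3. The cause of the moves below was not tested.

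At 90 min, the 7 lower became 12 after quantile normalization, 2 with array medians subtracted, 20 with array weights, 14 on the 6 arrays alone, 14 with replicate 2 of 4 h out of the fit (added after seeing the data) and 2 to 5 without each array. The 0 higher became 1 after quantile normalization, with array weights and with that array out of the fit. At 4 h the 1 higher became 0 with the mean of probe sets, 2 after quantile normalization and 2 with array weights. It became 4 over every probe set, where CHAF1A, RFC1 and RFC3 counted through probe sets with a mean under 4. At 24 h the 0 higher became 1 over every probe set. From 90 min to 4 h the 15 lower became 6 on the 6 arrays alone and 6 to 18 without each array. The 1 higher there became 0 with the mean of probe sets, with array medians subtracted and on the 6 arrays alone, 2 with the dimmest tertile left out, after quantile normalization, in the replicate block and with array weights, and 0 to 1 without each array. From 4 h to 24 h the 1 higher became 2 over every probe set. CDT1 reversed with the mean of its probe sets, to −0.38 at 90 min (adjusted p = 0.0336) and −0.26 at 4 h (0.0497).

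The fit with the replicate block gave 8, 33 and 47 lower at 90 min, 4 h and 24 h, and 15 and 38 in the steps between JS-K times. Quantile normalization moved the share of all calls that were higher from 59.0% to 47.0% at 4 h and from 31.5% to 46.4% between 90 min and 4 h, with a members' median of −0.25 at 4 h and −1.09 at 24 h. Array medians subtracted moved that share from 54.5% to 32.7% between 4 h and 24 h, and array weights to 70.2% at 4 h and to 71.1% from 48.5% at 24 h.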
